A study of Mus musculus with 6 samples.

Results

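The genes described here are those whose symbols name a part of the cilium: intraflagellar transport (Ift), Bardet-Biedl syndrome (Bbs), axonemal dynein (Dnah, Dnaic, Dnali1), tektin (Tekt), radial spoke (Rsph), sperm-associated antigen (Spag) and cilia- and flagella-associated (Cfap) genes, with 4 markers of ependymal cells, Ccdc153, Calml4, Tmem212 and Rarres2. They were chosen by symbol, with earlier results of these data known, and 77 of the 17306 gene probe sets on the arrays belong to them. Of these, 47 are genes of motile cilia, 22 are Ift and Bbs genes, 4 are the ependymal markers and 4 are Spag genes with no settled place in the cilium. RNA came from the dissected habenula of adult mice (6 to 12 weeks) of the strain Chat DW167, a bacterial artificial chromosome line in which a tagged ribosomal protein is made in cells that use the choline acetyltransferase gene. The 3 IP arrays hold RNA from the ribosomes pulled down through the tag (translating ribosome affinity purification, TRAP), labelled as that of cholinergic neurons of the medial habenula. The 3 UB arrays hold RNA that did not bind, 1 from each of the same preparations, and stand for the tissue as a whole. Both fractions share genotype, age and dissection, and the labels give no treatment, sex or number of mice per preparation.

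Cilia are built on a microtubule skeleton called the axoneme. Ependymal cells, which line the brain's ventricles and border the medial habenula, carry tufts of motile cilia whose axonemes hold dynein arms, radial spokes and tektin filaments. Most neurons carry a single primary cilium, which does not beat and serves as an antenna for signals. Both kinds are assembled by intraflagellar transport, in which kinesin carries trains of IFT-B and IFT-A proteins outward and dynein brings them back, and the BBSome, a complex of Bbs proteins, moves membrane receptors along with the trains. The factors RFX and FOXJ1 switch on cilium genes, RFX through a DNA motif known as the X-box and FOXJ1 mainly in cells with motile cilia.

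Promoter sequences were taken from RefSeq (build GRCm38.p6) to show what stands upstream of genes that differed between the fractions. The table held 71 promoters of 64 of the 77 genes, each running from 250 bases before the start to 50 after it. The letters GTTGCC, an arm of the X-box, occurred on either strand in 23 of those 71 promoters (32.4%), against 4111 of all 32851 promoters in the table (12.5%). They stood in 8 of 19 promoters of Ift and Bbs genes (42.1%) and in 14 of 44 promoters of motile cilium genes (31.8%). The forkhead letters GTAAACA, searched on both strands as well, occurred in 2 of the 71 (2.82%), against 1199 of all 32851 (3.65%). The forkhead letters occur in none of the promoters printed. The 6 promoters below belong to the called genes with an entry and the largest fitted changes, 5 lower in IP and 1, Dnaic2, higher. Each of the 6 was under 50 on the linear scale on all arrays of 1 fraction, so only a least fold is known for them. It was 56.2 for Ccdc153 and 24.3 for Calml4, above the 7.73-fold of Cfap126, which was measured in both fractions. For Tmem212, Tekt5, Cfap161 and Dnaic2 the order against Cfap126 is not known. Each line is the 250 bases before the start, with matches to GTTGCC in either orientation in capitals.
Ccdc153: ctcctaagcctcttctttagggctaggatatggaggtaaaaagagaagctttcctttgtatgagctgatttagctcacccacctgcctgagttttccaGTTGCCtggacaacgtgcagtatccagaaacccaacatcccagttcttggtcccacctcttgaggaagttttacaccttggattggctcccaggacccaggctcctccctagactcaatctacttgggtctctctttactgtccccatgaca
Calml4: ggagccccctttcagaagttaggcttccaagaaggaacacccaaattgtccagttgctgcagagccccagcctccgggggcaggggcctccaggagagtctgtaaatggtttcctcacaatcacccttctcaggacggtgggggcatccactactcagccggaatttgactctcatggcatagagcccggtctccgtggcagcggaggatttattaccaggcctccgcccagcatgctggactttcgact
Tmem212: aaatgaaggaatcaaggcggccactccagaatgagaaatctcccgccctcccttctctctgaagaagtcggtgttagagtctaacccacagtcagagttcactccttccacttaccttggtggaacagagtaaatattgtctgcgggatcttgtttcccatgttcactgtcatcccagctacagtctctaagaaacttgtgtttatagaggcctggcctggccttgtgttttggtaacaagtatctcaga
Tekt5: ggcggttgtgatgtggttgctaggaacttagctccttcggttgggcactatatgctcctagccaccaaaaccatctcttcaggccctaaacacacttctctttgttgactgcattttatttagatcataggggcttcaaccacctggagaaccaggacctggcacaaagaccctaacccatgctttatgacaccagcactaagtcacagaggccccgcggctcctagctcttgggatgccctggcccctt
Cfap161: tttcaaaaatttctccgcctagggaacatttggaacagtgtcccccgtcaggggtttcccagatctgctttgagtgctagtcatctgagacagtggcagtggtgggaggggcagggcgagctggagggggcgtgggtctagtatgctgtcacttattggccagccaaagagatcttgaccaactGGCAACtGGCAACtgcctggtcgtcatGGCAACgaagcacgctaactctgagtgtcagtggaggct
Dnaic2: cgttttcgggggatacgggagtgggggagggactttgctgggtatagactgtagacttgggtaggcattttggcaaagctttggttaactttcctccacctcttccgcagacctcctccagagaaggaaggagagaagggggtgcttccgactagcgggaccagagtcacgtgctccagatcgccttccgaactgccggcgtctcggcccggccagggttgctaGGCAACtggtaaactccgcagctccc
In the order printed these lie at chr9:44240427-44240676 (plus strand), chr9:62857854-62858103 (plus strand), chr3:27896369-27896618 (minus strand), chr16:10395456-10395705 (minus strand), chr7:83794840-83795089 (minus strand) and chr11:114727169-114727418 (plus strand). Cfap161 held 3 matches, which began 66, 59 and 39 bases before the start, Ccdc153 held 1 at 152 and Dnaic2 held 1 at 26. Calml4, Tmem212 and Tekt5 held none in this window. By direction of the difference, the letters stood in 4 of 11 promoters of genes called lower in IP (36.4%) and in 10 of 28 promoters of the other tested cilium genes (35.7%). Cfap298, which was higher in IP, had 4 matches, at 188, 180, 69 and 60 bases before its start.

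Setting IP against UB shows which cilium transcripts were enriched on, or missing from, the tagged ribosomes. All 4 ependymal markers were called lower in IP, and so were 8 genes of motile cilia, among them Tekt5, Rsph4a and Cfap126. With the dim IP fraction set to a level of 50, the fold was only 1.67 for Rarres2, 1.38 for Tekt1 and 1.61 for Cfap97. Other motile cilium genes were not lower: Dnaic2, Dnah11, Spag1 and Cfap298 were called higher in IP on the fitted scale. With the dim UB fraction set to 50, the fold was only 1.16 for Dnah11 and was 2.79 for Dnaic2. The Ift and Bbs genes stood near each other in both fractions, with fitted changes between -1.16 and 1.06 on the log2 scale. A probe set was tested if at least 3 of the 6 arrays reached a level of 50 on the linear scale (5.644 on the log2 scale), which 44 of the 77 did, and was called if its adjusted p was under 0.05 and its change at least 2-fold (limma, Benjamini-Hochberg over all tested probe sets). Of the 44, 5 were called higher and 14 lower. Among all 8960 tested probe sets 14.3% were called higher and 28.0% lower, so the share of cilium genes called in either direction was near that of the array as a whole. The median change of the 44 was -0.03 (-0.02 with dim fractions set at their bound), against -0.17 (-0.15) for all tested probe sets.

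These counts rest on the scaling between fractions, which had been normalized apart. With the fractions aligned on biotinylated control probe sets the split was 5 higher to 14 lower. Quantile normalization gave 8 to 11, and equal medians over the tested probe sets gave 9 to 12. Equal medians over all probe sets, which shifts every change upward by 1.55, gave 26 to 9. In the results below a level is the deposited log2 value. A change is IP over UB on the log2 scale after alignment on the controls, ± SE. The SE and p leave out the uncertainty of the alignment, whose offset had an SE over arrays of 0.212. A fraction with no array at 50 or more was set to 50, and its fold is then written as at least that large. GCRMA, the authors' method, gave equal values on 2 or 3 arrays of a fraction for 22 of the 44 genes, and for 61.5% of all tested probe sets, and where it did the SE and p are too small. In bulk RNA, fewer cells of a type and less RNA per cell cannot be told apart.

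**Figure D1:**
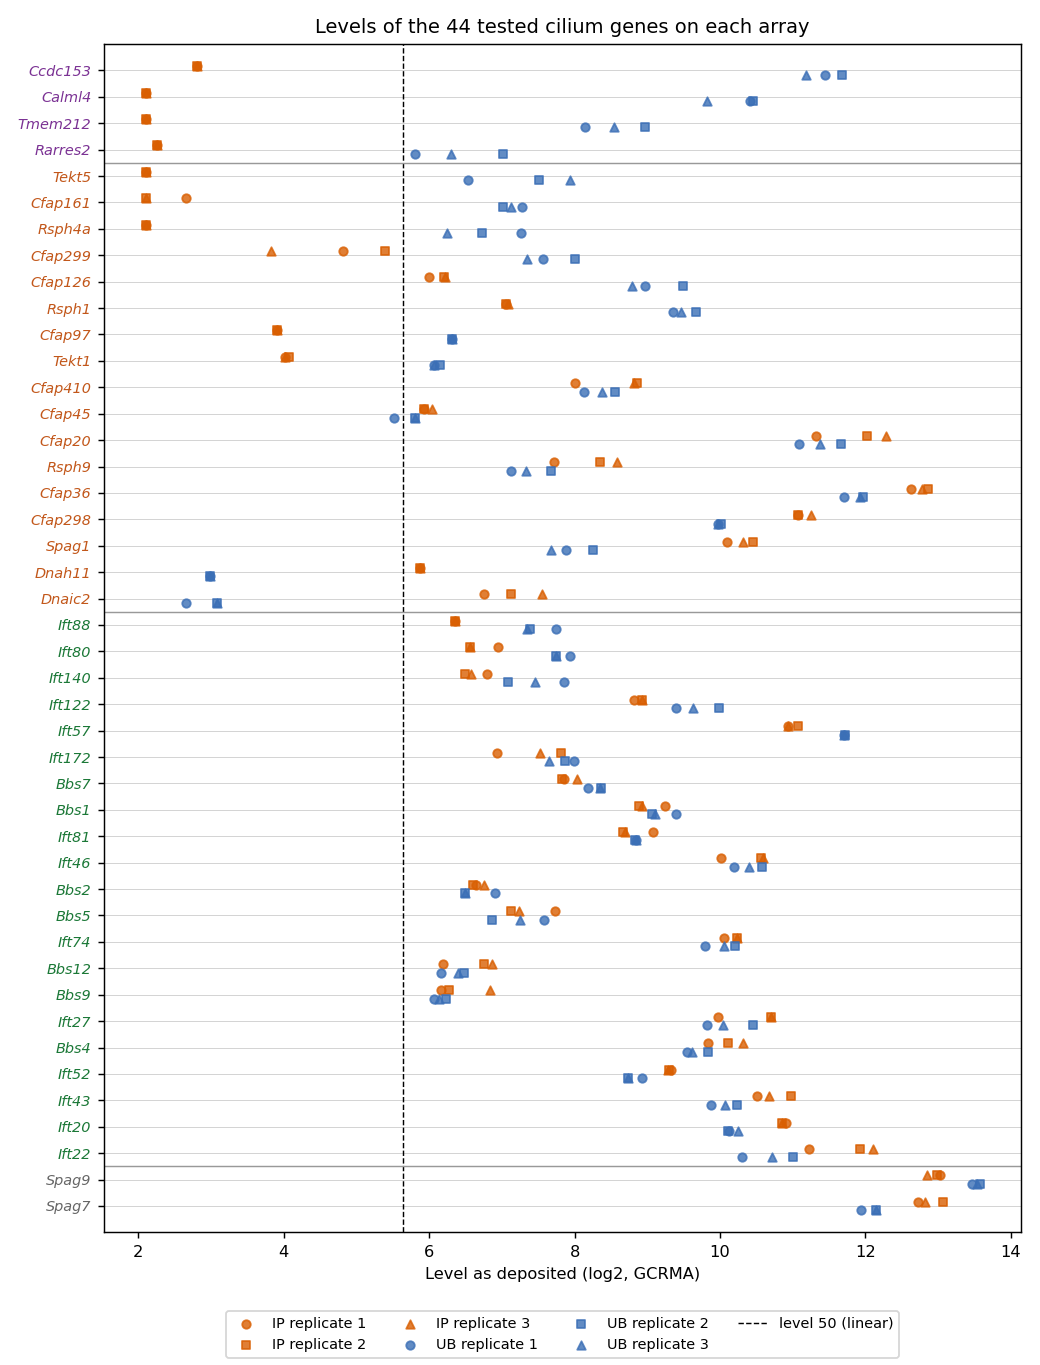
Deposited log2 level (horizontal axis) of each of the 44 tested genes on each array, with IP arrays in orange and UB arrays in blue, marker shapes for replicates and a dashed line at 50 on the linear scale. Ependymal markers sit at the far left in IP (2.10 to 2.81) and right of the line in UB, while both fractions of the Ift and Bbs genes lie right of the line.

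The 4 ependymal markers were at levels of 2.10 to 2.81 on the IP arrays, far under 50 on the linear scale. Ccdc153, which encodes a coiled-coil protein of motile cilia, had a level of 2.81 on all 3 IP arrays, against 11.45, 11.68 and 11.19 on the UB arrays. It was at least 56.2-fold lower in IP (change -8.65 ± 0.13, adjusted p = 4e-07). Calml4, a calmodulin-like gene used as a marker of both ependyma and choroid plexus, stood at 2.11 on all IP arrays and at 10.41, 10.46 and 9.82 on the UB arrays, and was at least 24.3-fold lower (adjusted p = 2.04e-06). No IP array came near any UB array for either gene. Tmem212, a membrane protein gene, stood at 2.10 on the IP arrays, their lowest value, and at 8.15, 8.97 and 8.54 on the UB arrays, at least 7.58-fold lower (adjusted p = 8.64e-06). Rarres2, which encodes the secreted protein chemerin, stood at 2.25 on all IP arrays and at 5.80, 7.02 and 6.30 on the UB arrays. Its bound was 1.67-fold (change -4.14 ± 0.33, adjusted p = 0.00025), and it no longer passed an adjusted p of 0.05 with levels under 50 raised to 50. Tekt1, Cfap97 and Dnah11, described below, passed under that setting but at less than 2-fold, so 4 cilium genes were then called higher and 11 lower. The summed linear level of the 4 markers was 20 on every IP array and 3690 to 5331 on the UB arrays, and each of the 4 had its 3 IP values below its 3 UB values. Among all tested probe sets, 46.6% had all IP values below all UB values. The 4 markers were tested through UB alone, so this order was built into their selection.

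Radial spokes are T-shaped complexes that pass signals from the central microtubules to the dynein arms. Rsph4a, a spoke head gene, was at the lowest value of the IP arrays (2.10 on all 3) and at 7.26, 6.73 and 6.25 on the UB arrays, at least 2.17-fold lower in IP (change -4.66 ± 0.27, adjusted p = 7.24e-05). Rsph1, another spoke head gene, kept signal in IP, with 7.06, 7.06 and 7.08 against 9.35, 9.67 and 9.47 in UB. It was 5.44-fold lower (adjusted p = 1.08e-05), and the fractions did not overlap. Rsph9, a further spoke head gene, went the other way: its IP levels were 7.72, 8.35 and 8.58 and its UB levels 7.12, 7.68 and 7.33. The change of 0.83 ± 0.28 was under 2-fold (adjusted p = 0.0486), and its adjusted p rose above 0.05 without IP replicate 2 or 3 or any 1 UB replicate (0.0547 to 0.226). The change without any 1 array ran from 0.53 to 1.14, and the differences within preparations were 0.59, 0.66 and 1.24, so its sign, opposite to that of Rsph1 and Rsph4a, was the same throughout.

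Tektins form filaments inside the doublet microtubules. Tekt5 stood at 2.11, 2.10 and 2.10 in IP and at 6.53, 7.51 and 7.94 in UB, at least 3.25-fold lower in IP (change -5.24 ± 0.38, adjusted p = 0.000182). Tekt1 had 4.02, 4.07 and 4.02 in IP and 6.06, 6.15 and 6.06 in UB, with a bound of 1.38-fold (change -2.07 ± 0.03, adjusted p = 4.25e-07). Both tektins were under 50 on every IP array and above it on every UB array. Tekt2 reached 50 on 2 arrays, both UB (6.68 and 6.33, with 5.52 on UB replicate 1 and 2.12 on the IP arrays), and so was not tested.

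Of 21 Cfap genes 9 were tested, and 4 of these were called lower and 1 higher. The shares over all tested probe sets were 28.0% lower and 14.3% higher. Cfap126, known as Flattop and needed to place basal bodies in multiciliated cells, stood at 6.00, 6.21 and 6.22 in IP and 8.97, 9.49 and 8.79 in UB, 7.73-fold lower in IP (change -2.95 ± 0.21, adjusted p = 0.000149). Cfap161, a protein of the doublet lumen, stood at 2.65, 2.10 and 2.10 in IP and 7.28, 7.01 and 7.12 in UB, at least 2.84-fold lower (adjusted p = 1.35e-05). Cfap299 had 4.82, 5.39 and 3.82 in IP and 7.56, 8.0 and 7.35 in UB, at least 4.03-fold lower (adjusted p = 0.00327). Of these 3, only Cfap126 had IP arrays above 50. Cfap97 had 1 value in each fraction, 3.91 in IP and 6.31 in UB, with a bound of 1.61-fold, so its adjusted p of 3.58e-11 rests on ties.

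The other 5 tested Cfap genes had signal in both fractions. Cfap298, which is needed to assemble dynein arms, stood at 11.07, 11.07 and 11.25 in IP and 9.97, 10.01 and 9.97 in UB, 2.19-fold higher in IP (change 1.13 ± 0.06, adjusted p = 5e-05). Cfap36, whose protein binds the ciliary GTPase Arl3, had 12.63, 12.86 and 12.78 in IP and 11.70, 11.97 and 11.92 in UB. It was 1.84-fold higher (adjusted p = 0.00105), so it passed the p threshold without reaching 2-fold, and neither of these genes overlapped between fractions. Cfap20, an axoneme protein, stood at 11.32, 12.02 and 12.28 in IP and 11.08, 11.66 and 11.38 in UB, and the ranges overlapped (change 0.48 ± 0.31, adjusted p = 0.213). Cfap45 had 5.93, 5.93 and 6.04 in IP and 5.51, 5.80 and 5.80 in UB (0.25 ± 0.10, adjusted p = 0.0728). Cfap410 differed by 0.19 ± 0.28 (adjusted p = 0.557). Cfap20 and Cfap410 fell under 0.05 without IP replicate 1 (0.0326 and 0.0352), and Cfap45 without UB replicate 3 (0.031).

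Outer dynein arms are the motors that make cilia beat. Dnaic2, an intermediate chain of the outer arm, had signal in IP alone: it stood at 6.75, 7.12 and 7.55 in IP and 2.65, 3.08 and 3.08 in UB, at least 2.79-fold higher in IP (change 4.19 ± 0.25, adjusted p = 8.46e-05). Dnah11, an outer arm heavy chain, had the value 5.88 on all IP arrays, just above 50 on the linear scale, and 2.98 on all UB arrays. Its bound was 1.16-fold, and its adjusted p of 3.28e-12 rests on ties. Both genes reached 50 in IP and on no UB array, the reverse of the tektins. The other 8 dynein genes were not tested, and the inner arm gene Dnali1 stood at 2.10 in IP and 5.29 in UB.

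Spag1 is a cytosolic protein that helps to assemble dynein arms before they enter the cilium. It stood at 10.10, 10.45 and 10.31 in IP and 7.88, 8.25 and 7.67 in UB, 5.06-fold higher in IP (change 2.34 ± 0.19, adjusted p = 0.000244). All 3 IP values lay above all 3 UB values, which held for 33.4% of all tested probe sets. Spag6, Spag6l, Spag16 and Spag17, genes of the central pair of the axoneme, were under 50 on all arrays, as was Spag8. The remaining Spag genes share the name and not a place in the cilium. Spag9, a scaffold protein of the JNK pathway, had 13.03, 12.98 and 12.85 in IP and 13.46, 13.57 and 13.54 in UB (-0.59 ± 0.06, adjusted p = 0.000665). Spag7 had 12.72, 13.07 and 12.82 in IP and 11.94, 12.15 and 12.14 in UB (0.78 ± 0.12, adjusted p = 0.00297). Neither reached 2-fold, and with the medians of all probe sets made equal Spag9 turned to 0.96.

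Among the 17 tested motile cilium genes, 8 had fitted changes from -5.24 to -2.07 and 9 from 0.19 to 4.19, of which 3 did not pass an adjusted p of 0.05. Many of these values rest on a dim fraction: 6 of the 8 lower genes were tested through UB alone, and Dnaic2 and Dnah11 through IP alone, so a difference was built into their selection. With the dim fraction at its bound, Tekt1 stood at -0.46, Cfap97 at -0.68 and Dnah11 at 0.22. The 8 genes lower in IP stayed negative under the 3 other scalings, each of which moved the median of the tested probe sets upward. Of the 44 tested cilium genes, 10 were at 50 or more on all UB arrays and under 50 on all IP arrays. They were the 4 ependymal markers and 6 motile cilium genes, with 0 of the 21 Ift and Bbs genes. Among all tested probe sets this held for 15.3%. The 30 motile cilium genes that were not tested had IP levels from 2.10 to 3.93 and UB levels from 2.05 to 6.68, and 14 of them were under 2.2 on every array. Apart from Tekt2 they were under 50 on all arrays, and no fold is given for them.

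**Figure D2:**
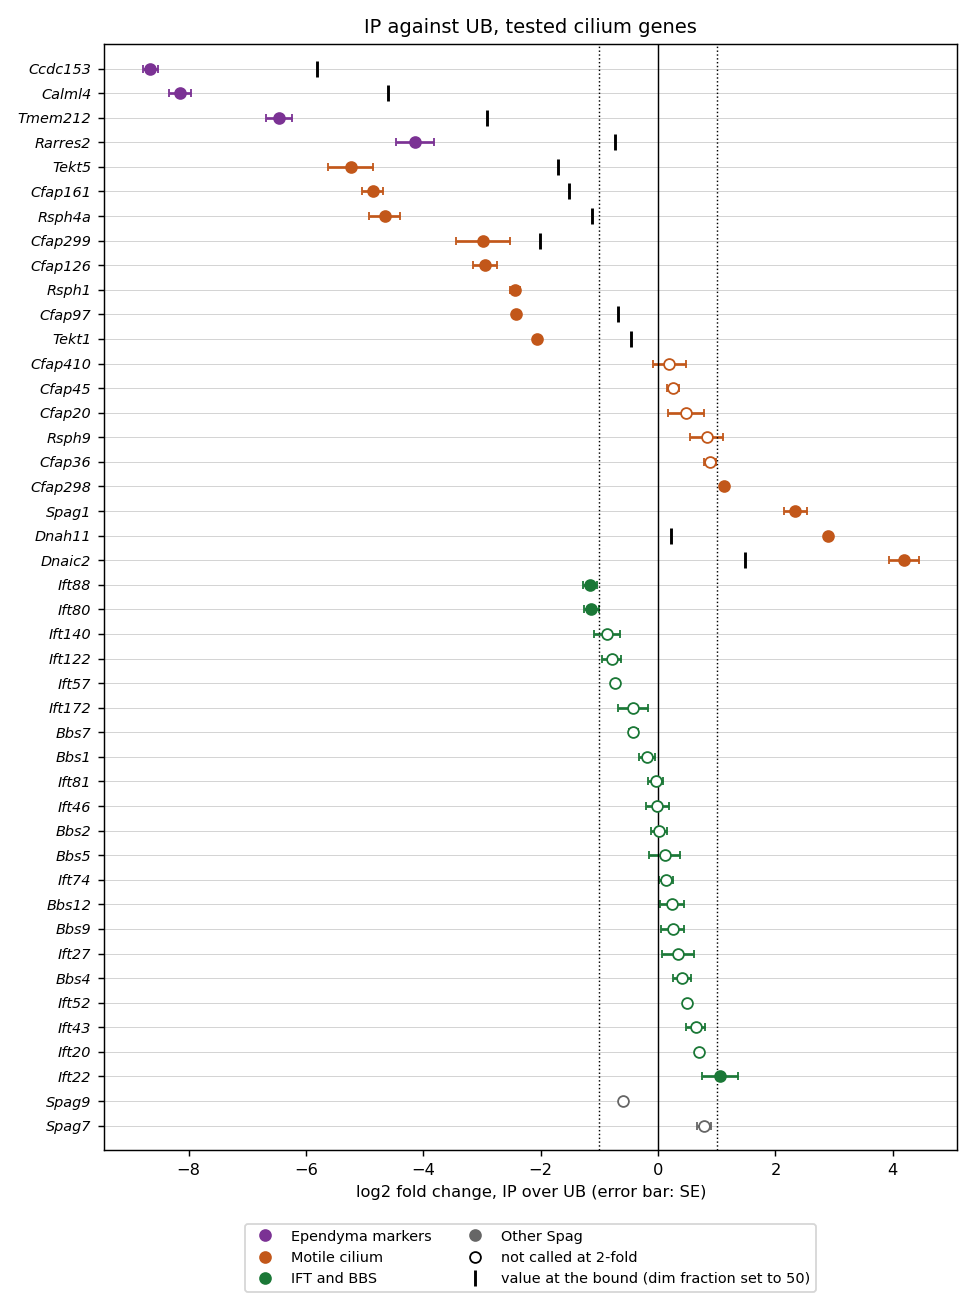
Change of IP over UB (log2, horizontal axis, error bars SE) for the 44 tested genes, with filled points for genes called at 2-fold, open points for the rest, black ticks for the value with the dim fraction set to 50, and dotted lines at 2-fold. Motile cilium genes in orange run from -5.24 to 4.19, and Ift and Bbs genes in green from -1.16 to 1.06.

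Of 14 Ift genes, all tested, 1 was called higher and 2 lower, and 4 were higher and 5 lower at an adjusted p under 0.05 without the fold limit. For all tested probe sets, 30.9% were higher and 43.5% lower by that rule, and 14.3% and 28.0% at 2-fold. The median change of the Ift genes was -0.03. IFT-B is the complex that carries cargo outward. Ift22, a small GTPase-like subunit, stood at 11.22, 11.93 and 12.10 in IP and 10.30, 11.00 and 10.72 in UB, 2.09-fold higher in IP (change 1.06 ± 0.31, adjusted p = 0.0312). Replicate 1 was the lowest in both fractions, and the difference within each preparation was 0.91, 0.91 and 1.36. With IP replicate 2, IP replicate 3, UB replicate 1 or UB replicate 3 left out in turn, Ift22 was not called, at an adjusted p between 0.0595 and 0.139. Ift20, which also resides at the Golgi, had 10.91, 10.85 and 10.85 in IP and 10.13, 10.11 and 10.25 in UB, 1.62-fold higher (adjusted p = 0.000164). Ift52, a core subunit, had 9.33, 9.30 and 9.29 in IP and 8.93, 8.73 and 8.73 in UB, 1.41-fold higher (adjusted p = 0.00158). In these 3 genes no IP value fell among the UB values.

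Other IFT-B genes were lower in IP. Ift88, a core subunit, stood at 6.35 on all IP arrays and at 7.74, 7.39 and 7.34 in UB, 2.24-fold lower in IP (change -1.16 ± 0.12, adjusted p = 0.000635). Ift80 had 6.94, 6.56 and 6.56 in IP and 7.94, 7.75 and 7.75 in UB, 2.21-fold lower (change -1.14 ± 0.13, adjusted p = 0.000978). Ift57 was 1.67-fold lower (adjusted p = 8.77e-05). Ift172, Ift81, Ift46, Ift74 and Ift27 had changes of -0.43 ± 0.26, -0.04 ± 0.13, -0.01 ± 0.20, 0.14 ± 0.12 and 0.34 ± 0.28 and did not pass the test (adjusted p from 0.191 to 0.952). Ift74 and Ift81, whose proteins pair to bind tubulin, overlapped between fractions, and Ift81 passed the p threshold without IP replicate 1 (-0.12, adjusted p = 0.00439).

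IFT-A serves the return journey and the entry of membrane proteins. Ift140 stood at 6.79, 6.49 and 6.57 in IP and 7.86, 7.09 and 7.46 in UB, 1.83-fold lower in IP (change -0.87 ± 0.22, adjusted p = 0.0197). Ift122 had 8.82, 8.93 and 8.93 in IP and 9.39, 9.98 and 9.63 in UB, 1.73-fold lower (adjusted p = 0.00913). Ift43 had 10.51, 10.97 and 10.67 in IP and 9.87, 10.24 and 10.07 in UB, 1.56-fold higher (adjusted p = 0.0183). So among the 3 IFT-A subunits with an Ift symbol, 2 were lower and 1 higher, none by 2-fold. Their adjusted p rose above 0.05 without UB replicate 3 for Ift140 (0.0914) and Ift122 (0.0528), without IP replicate 2 for Ift140 (0.077), and without IP replicate 3 or UB replicate 1 for Ift43 (0.0789 and 0.127).

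Of 8 Bbs genes, 7 were tested and none was called at 2-fold in limma. At that limit 14.3% of all tested probe sets were called higher and 28.0% lower. Without the fold limit 1 of the 7 was lower at an adjusted p under 0.05. That gene was Bbs7, a BBSome subunit, with 7.85, 7.83 and 8.03 in IP and 8.19, 8.37 and 8.35 in UB (change -0.42 ± 0.08, adjusted p = 0.00699). Its adjusted p was 0.0905 without UB replicate 3, 0.227 with the control offset taken per array and 0.335 with equal medians over the tested probe sets. Quantile normalization gave a change of -0.01 (adjusted p = 0.899). Bbs1, mutated in many people with Bardet-Biedl syndrome, stood at 9.24, 8.88 and 8.93 in IP and 9.39, 9.07 and 9.11 in UB. Its change of -0.19 ± 0.14 did not pass (adjusted p = 0.275), but the differences within preparations were nearly equal (-0.17, -0.21 and -0.19), and with the replicate number as a block the adjusted p was 0.00849. Bbs4 had 9.84, 10.11 and 10.32 in IP and 9.54, 9.84 and 9.62 in UB (0.41 ± 0.15, adjusted p = 0.0659, and 0.0196 without IP replicate 1). Bbs9 had 6.16, 6.27 and 6.83 in IP and 6.07, 6.23 and 6.14 in UB (0.25 ± 0.20, adjusted p = 0.295). Bbs5 had 7.73, 7.12 and 7.23 in IP and 7.58, 6.86 and 7.25 in UB (0.11 ± 0.26, adjusted p = 0.711), and Bbs2 differed by 0.02 ± 0.14 (adjusted p = 0.91). Bbs12, a chaperonin-like gene needed to assemble the BBSome, had 6.19, 6.75 and 6.86 in IP and 6.16, 6.48 and 6.39 in UB (0.24 ± 0.21, adjusted p = 0.351, and 0.0228 without IP replicate 1). Bbs10, also a chaperonin-like gene, was under 50 on all arrays (3.30, 3.23 and 3.23 in IP and 3.20 in UB). Mkks, a chaperonin-like gene under another symbol, was 2.63-fold higher in IP (limma, adjusted p = 1.25e-05). It is counted in the list of further transport genes below. Except for Bbs7, the ranges of the fractions overlapped for every tested Bbs gene.

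Set beside each other, the 21 tested Ift and Bbs genes had a median change of 0.02, and 1 was called higher and 2 lower. The 17 tested motile cilium genes had a median of 0.19, with 4 called higher and 8 lower. All tested probe sets had a median of -0.17, with 14.3% called higher and 28.0% lower. Among the Ift and Bbs genes the direction of single members rested on the scaling: 10 of the 21 were negative when aligned on the controls and turned positive with the medians of all probe sets made equal, Ift88 to 0.39 and Ift80 to 0.41. With the medians of the tested probe sets made equal or with quantile normalization, 2 were called higher and 0 lower at 2-fold.

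**Figure D3:**
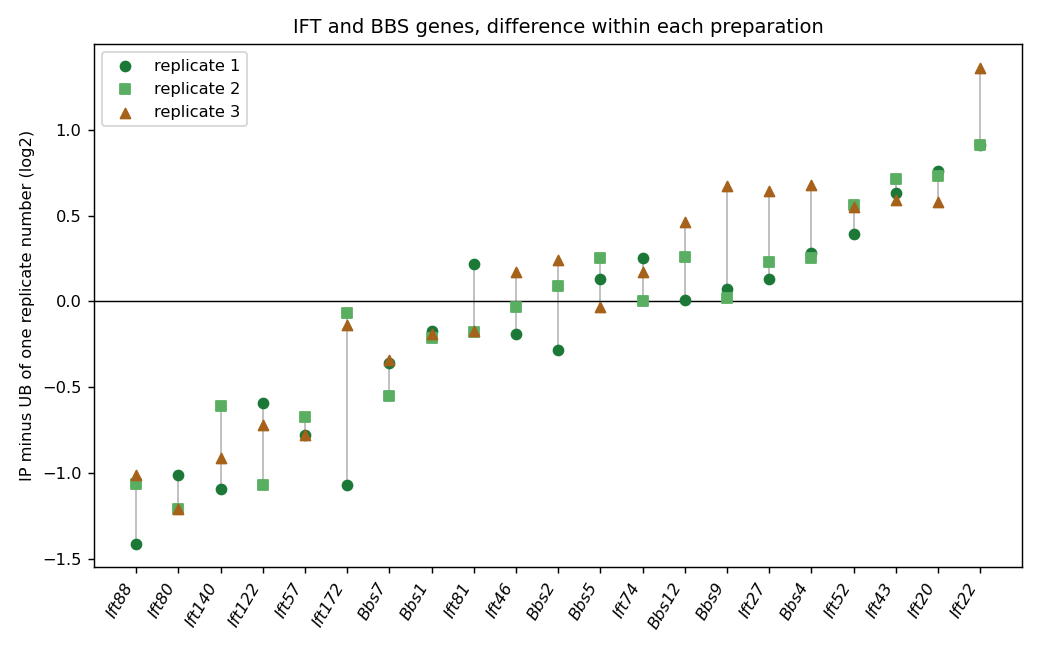
Difference of IP minus UB (log2, vertical axis) within each of the 3 replicate numbers for the 21 tested Ift and Bbs genes, ordered by mean change, with 1 marker per replicate and a grey line over their range. Ift88, Ift80, Ift140, Ift122 and Ift57 are below 0 in all 3 preparations, and Ift22, Ift20, Ift43 and Ift52 are above 0 in all 3.

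**Figure D4:**
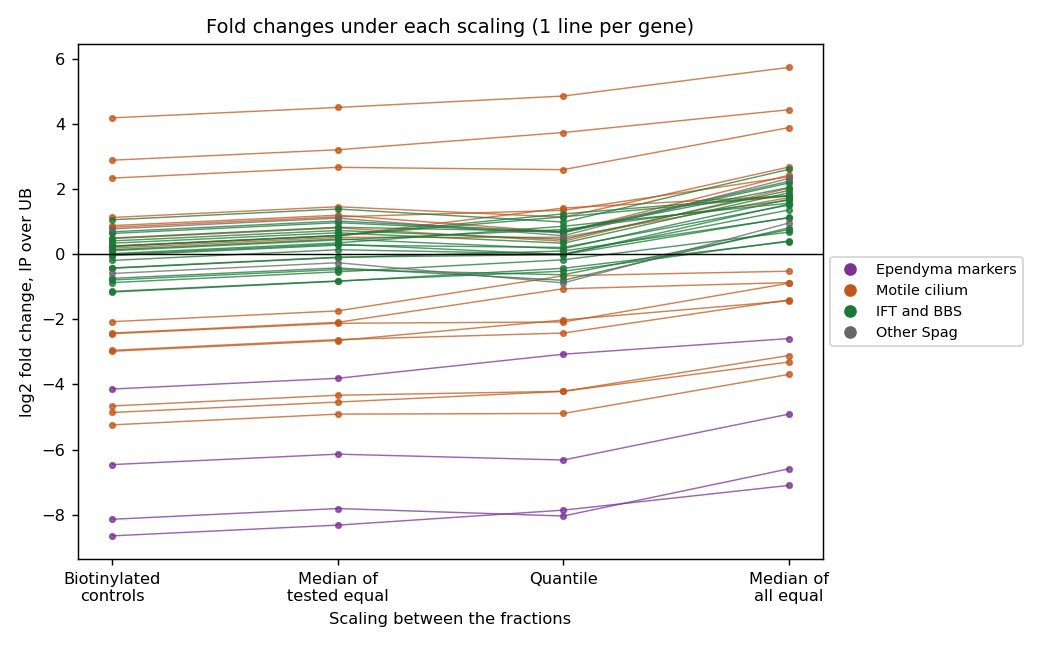
Change of IP over UB (log2, vertical axis) for each of the 44 tested genes under 4 scalings between the fractions (horizontal axis), with 1 line per gene. The 4 ependymal markers and 8 motile cilium genes stay below 0 throughout, and the green lines of the Ift and Bbs genes that start below 0 end above it at the right.

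Lists of further cilium genes, none of them members, were measured the same way. Of 69 listed symbols for the motile axoneme and its assembly, 62 had a probe set, with Dnaaf1 counted under an older symbol as well. Tests were possible for 21, with 4 higher and 10 lower at 2-fold (median -0.86, or -0.84 with dim fractions at their bound). The largest fitted changes were those of Fam216b, Capsl and Lrrc23, at least 13.9-fold, 4.88-fold and 2.92-fold lower in IP. These genes were tested through UB alone. Among genes with signal in both fractions, Dynlrb2 was 28.8-fold lower, while Spa17 and Riiad1 were 6.65-fold and 5.14-fold higher. Of 28 further transport genes, 26 had a probe set. Tests were made for 22, of which 3 were higher and 4 lower at 2-fold (median 0.16). Tctex1d2, a dynein light chain of retrograde transport, was 6.08-fold higher, and the tubby gene Tub and the IFT-A gene Wdr35 were 3.81-fold and 3.53-fold lower. Of 28 genes of signalling in the primary cilium, 25 had a probe set and 6 were tested. In limma 3 were called higher and 0 lower, with 4 higher and 0 lower without the fold limit. Among all tested probe sets 14.3% were higher and 28.0% lower at 2-fold, and 30.9% and 43.5% without the fold limit. The receptor gene Kiss1r was at least 2.98-fold higher in IP, and Unc119 and Pde6d, which carry lipid-anchored proteins into the cilium, were 2.73-fold and 2.23-fold higher. Kiss1r was under 50 on all UB arrays and so was tested through IP alone, which built its direction into the filter. Adcy3, the adenylyl cyclase of neuronal cilia, was under 50 in both fractions (4.23 in IP and 5.29 in UB).

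Markers of the cells present were read alongside. All 11 markers of cholinergic medial habenula neurons were called higher in IP, with summed linear levels of 70320 to 96941 in IP and 9882 to 16740 in UB. All 11 tested astrocyte and all 11 tested oligodendrocyte markers were called lower, as were 5 of 6 for microglia. Over all tested probe sets, 14.3% were called higher and 28.0% lower. Of the tested markers, 9 for astrocytes, 8 for oligodendrocytes and 4 for microglia were under 50 on all IP arrays. They were tested through UB alone, and 2 neuron markers through IP alone, so their directions were built into the filter. Further ependymal markers had 14 probe sets, of which 12 entered the test, 7 of them through UB alone. Of the 12, 9 fell by 2-fold or more in IP and 1, Nnat, was higher. Several of these markers, among them Ak7, Mlf1, Enkur and Dynlrb2, also stand in the motile axoneme list above, so the counts of the lists are not separate. Their summed level was 5339 to 11614 in IP and 8293 to 11534 in UB. Most of the IP sum came from Nnat (mean linear level 5450 in IP and 984 in UB) and Tppp3 (2680 and 3230). Dynlrb2, called lower, stood at 58.7 in IP and 1670 in UB. Foxj1 and Hydin were at or near the lowest value of both fractions. Tppp3 and Fam183b, used as ependymal markers too, had changes of -0.28 and -0.84 and were not called at 2-fold. Choroid plexus transcripts also moved with the fractions: Ttr had 10.43, 11.39 and 9.67 in IP and 15.00, 13.37 and 13.87 in UB, 12.1-fold lower in IP (adjusted p = 0.00553), while Otx2 and Sostdc1 were 2.35-fold and 13.0-fold higher in IP. The part of these cell types in the cilium gene differences was not tested.

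**Figure D5:**
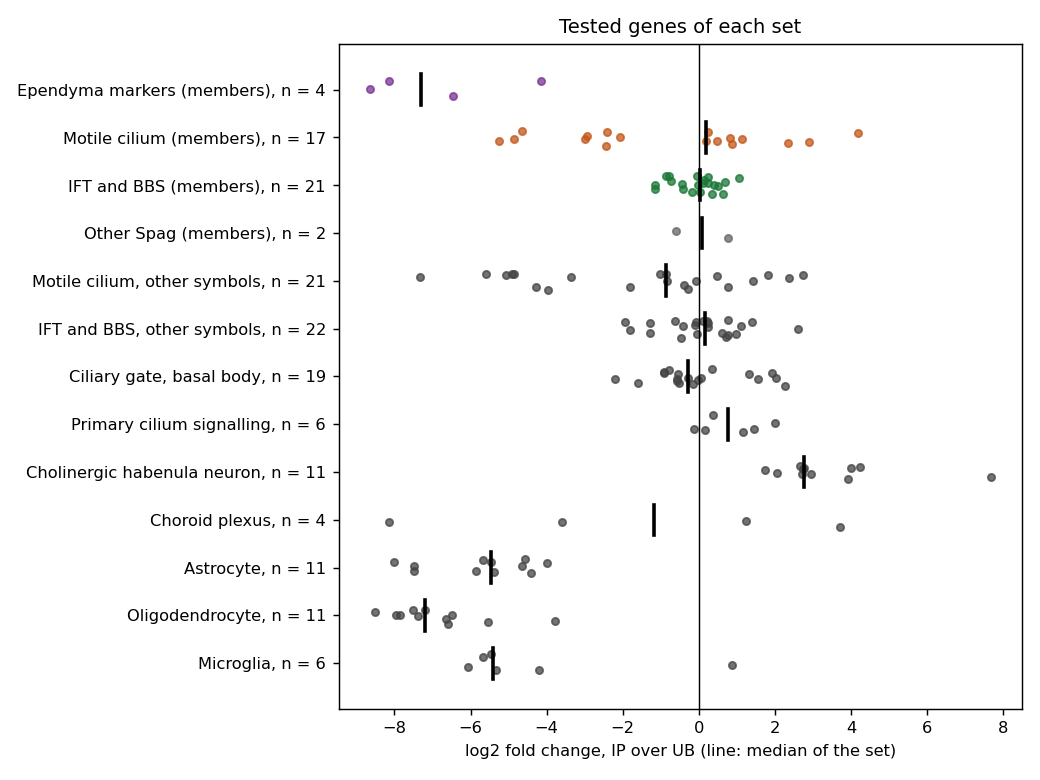
Change of IP over UB (log2, horizontal axis) of each tested gene in the groups of cilium genes (coloured), in lists of further cilium genes and in lists of cell type markers (grey), with a black line at each median and n the number tested. The ependymal markers lie between -8.65 and -4.14, and the Ift and Bbs genes between -1.16 and 1.06.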

How the data were processed

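RNA was measured on 6 Affymetrix arrays, 3 IP and 3 UB, from 20 ng each over 2 amplification cycles, per the labels. The deposited values are on a log2 scale. The authors applied GCRMA within groups of replicates, per the series' design text, and its version and build are not given in the sources used here. Among all values the lowest value was 2.104 in IP and 2.045 in UB. Of 17370 probe sets 64 were controls, and 16464 had a symbol, each matched by gene ID to RefSeq (GRCm38.p6) for names. Signal at 50 or more was found for 7533 to 7579 probe sets on IP arrays and for 8618 to 8659 on UB arrays.

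The mean difference of 18 biotinylated controls (0.016, SE over arrays 0.212) was subtracted from IP. Fractions were compared with limma (version 3.58.1, R 4.3.3, trended eBayes, two-sided) over 8960 probe sets. Without adjustment 6859 had p under 0.05. The replicate number pairs the fractions, since the labels name the preparation and deviations correlated by 0.592, 0.483 and 0.279 within numbers 1, 2 and 3. Numbers 2 and 3 are not set apart by this check, as IP 3 correlated by 0.315 with UB 2 and IP 2 by 0.25 with UB 3. Alternatives were other scalings, filters, levels under 50 raised to 50, tied probe sets left out, moderation without a trend, the replicate block and arrays left out. In simulated data for IP against UB (8960 probe sets), the share found by limma was 40% for a log2 change of 0.5, 50% for 1, 86% for 2 and 96% for 4, beside 16 false calls. The simulation changed only 50 probe sets at each size and held no shift shared by an array. Its shares therefore need not hold for the real contrast. Plotting used Python 3.11.15, pandas 2.3.3 and matplotlib 3.10.9.

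Members, gene lists and tests were chosen with earlier results of these data known. All tested members are named. Array values are given for the ependymal markers and, within each family, for the 4 largest changes in each direction. From other lists the 3 largest changes are named. Other genes named from them were picked with their values known.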

Additional observations from a re-analysis of the deposited data

How the results depend on the processing

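Counts moved with the scaling between fractions and with the filter. Against 5 cilium genes called higher and 14 lower, the split was 26 to 9 with the medians of all probe sets made equal (motile cilium genes 9 to 5, Ift and Bbs genes 16 to 0), 9 to 12 with the medians of the tested probe sets made equal (Ift and Bbs 2 to 0) and 8 to 11 with quantile normalization (Ift and Bbs 2 to 0). Equal medians add 1 shift to all changes, while quantile normalization moves genes by different amounts. With no filter 22 were called lower (16 motile), with at least 3 arrays at 100 or more 9 (4 motile), and with tied probe sets left out 7 (1 Ift or Bbs gene), since other numbers of genes are tested. Without 1 array at a time, 3 to 7 cilium genes were called higher and 14 to 15 lower, 3 to 6 motile genes higher, and 0 to 1 Ift and Bbs genes higher and 2 to 3 lower. With the medians of all probe sets made equal, changes turned to 0.68 for Ift140, 1.51 for Ift81, 0.39 for Ift88, 1.36 for Bbs1, 1.12 for Ift172, 0.41 for Ift80, 0.96 for Spag9, 1.13 for Bbs7, 0.81 for Ift57, 1.54 for Ift46 and 0.76 for Ift122. With the medians of the tested probe sets made equal they turned to 0.28 for Ift81, 0.14 for Bbs1 and 0.31 for Ift46, and with quantile normalization to 0.21 for Ift81, 0.01 for Bbs1 and 0.10 for Ift172. Without both arrays of replicate 1, Ift74 was at -0.02 and Bbs5 at 0.00. Without single arrays the change ran from -0.02 to 0.51 for Bbs12, -0.13 to 0.10 for Bbs2, -0.05 to 0.28 for Bbs5, -0.06 to 0.44 for Bbs9, -0.08 to 0.53 for Cfap410, -0.02 to 0.44 for Cfap45, -0.28 to 0.23 for Ift46, -0.14 to 0.30 for Ift74 and -0.21 to 0.10 for Ift81. The cause of these changes of sign was not tested. Raising levels under 50 to 50 gave a split of 4 to 11.

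With the replicate number as a block, the pairing left 5 cilium genes called higher and 14 lower. It moved Bbs1 under an adjusted p of 0.05 (0.00849) and no other tested member across it. Moderation without a trend changed no call. An offset taken per array left 5 called higher and 14 lower, while 4 genes under 2-fold, Spag9, Bbs7, Ift43 and Ift52, rose above an adjusted p of 0.05. Genes under 50 in both fractions are tested with no filter only, where many values are tied, and 3 arrays a fraction limit the precision.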

Other observations

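Genes that help to fold and assemble dynein arms in the cytosol are given here as a description, since they were grouped after their values were seen. Of 9 such genes with a probe set, 4 were tested, and these were called higher, as were 14.3% of all tested probe sets: Spag1, Cfap298, Dnaaf2 (at least 1.86-fold, adjusted p = 0.0089 in limma) and Ccdc103 (at least 2.06-fold, adjusted p = 0.00269). Dnaaf2 and Ccdc103 were tested through IP alone, with UB under 50 on all arrays, so their direction was built into the filter. The count therefore supports nothing about the group.

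At the base of the cilium, the transition zone and basal body form a gate that sorts proteins on their way in. Of 33 listed genes of this gate 28 had a probe set and 19 were tested, with 5 called higher and 2 lower (median change -0.29, or -0.22 at the bound). Among all tested probe sets 14.3% were called higher and 28.0% lower. Tmem17 and Tmem237, membrane proteins of the transition zone, were at least 1.63-fold and 4.09-fold higher in IP, while Ahi1, mutated in Joubert syndrome, was at least 4.04-fold lower. Tmem17 was tested through IP alone and Ahi1 through UB alone, so their directions were built into the filter. The other gene called lower was Tctn2 (3.04-fold, adjusted p = 0.011 in limma). Its adjusted p was 0.0573 with quantile normalization and 0.885 with the medians of all probe sets made equal. None of the 11 endothelial and mural cell genes with a probe set was tested.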
